A study of Homo sapiens with 2 samples.

Results

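NRF2, the transcription factor encoded by NFE2L2, its repressor KEAP1 and 8 antioxidant and detoxification genes that NRF2 is known to drive were examined in GFP-SAS cells after inhibition of miR-361-3p. The members were taken by symbol, as all probe sets annotated to NFE2L2, KEAP1, HMOX1, NQO1, GCLC, GCLM, TXNRD1, SRXN1, AKR1C1 or AKR1B10 alone. These 10 genes had 22 of the 45253 probe sets with a single gene symbol on the array, and every member had at least 1. SAS is an established squamous carcinoma line of the human tongue, and GFP-SAS carries green fluorescent protein. In one group miR-361-3p was inhibited with an LNA/DNA antisense oligonucleotide, and the control was given a non-target oligonucleotide of the same chemistry, each at 25 nM for 24 h. Each group was measured on 1 Affymetrix 3' expression array from 10 ng of total RNA, so no replicate error and no p-value can be given, and nothing below can be set against the variation between cultures. In such bulk RNA, less RNA per cell and fewer cells of a type cannot be told apart.

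In unstressed cells KEAP1 holds NRF2 in the cytoplasm and hands it to a cullin ubiquitin ligase for destruction. Oxidants and electrophiles modify KEAP1, and newly made NRF2 then enters the nucleus, pairs with small MAF proteins and binds the antioxidant response element in front of genes for glutathione synthesis, thioredoxin recycling, quinone reduction and heme breakdown. In squamous carcinomas the pathway is often switched on by mutation of NFE2L2 or KEAP1. Because NRF2 is regulated mainly as a protein, the mRNA level of NFE2L2 is not a measure of its activity.

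The inhibited microRNA is shown to identify the target of the oligonucleotide. The promoters of 3 genes described below are printed with any match to the core of the response element marked. TXNRD1 had the largest difference of the members, and GCLC and GCLM encode the 2 subunits of a single enzyme. No relation between these sequences and the differences was tested. The mature strand of miR-361-3p, from RefSeq (GRCh38.p14, chrX:85903641-85903663, minus strand), is printed 5′ to 3′ with its seed, bases 2 to 8, in capitals.
hsa-miR-361-3p: uCCCCCAGgugugauucugauuu

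The promoters, from RefSeq (GRCh38.p14), run from 250 bases before the transcription start to the start itself, 5′ to 3′ on the strand of the gene. Capitals mark matches on either strand to TGACNNNGC, the core of the antioxidant response element. The TXNRD1 window is chr12:104215529-104215779 on the plus strand, the GCLM window chr1:93909430-93909680 and the GCLC window chr6:53545101-53545351, both on the minus strand.
TXNRD1: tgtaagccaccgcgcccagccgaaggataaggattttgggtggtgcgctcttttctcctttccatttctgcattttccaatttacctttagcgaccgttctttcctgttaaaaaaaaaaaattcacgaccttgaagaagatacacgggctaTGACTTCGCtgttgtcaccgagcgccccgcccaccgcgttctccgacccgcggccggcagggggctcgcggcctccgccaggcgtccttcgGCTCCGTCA
GCLM: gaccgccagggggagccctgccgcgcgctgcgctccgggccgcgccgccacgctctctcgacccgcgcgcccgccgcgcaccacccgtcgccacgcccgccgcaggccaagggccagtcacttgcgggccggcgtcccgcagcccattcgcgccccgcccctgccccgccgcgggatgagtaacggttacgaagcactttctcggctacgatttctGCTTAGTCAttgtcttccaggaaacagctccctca
GCLC: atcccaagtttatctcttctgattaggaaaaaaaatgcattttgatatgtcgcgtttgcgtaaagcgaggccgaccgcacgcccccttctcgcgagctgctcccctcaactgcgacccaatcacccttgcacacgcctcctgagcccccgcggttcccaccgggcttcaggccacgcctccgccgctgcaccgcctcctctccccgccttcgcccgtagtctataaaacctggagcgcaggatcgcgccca

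The TXNRD1 window held 2 matches. The first, TGACTTCGC, lay from -99 to -91 relative to the start, and the second, TGACGGAGC on the opposite strand, lay from -8 to 1. The annotated start of TXNRD1 further downstream had a match of its own at -102 to -94. The GCLM window held TGACTAAGC on the opposite strand at -34 to -26, and no match was found in the GCLC window. RefSeq promoter windows of 300 bases, 250 before and 50 after the start, were given for 8 of the 10 members, and 3 of these 8 (TXNRD1, GCLM and KEAP1) had a match in at least 1 of their windows. At 1 of its annotated starts the KEAP1 window, like the printed TXNRD1 window, held 2 matches, at -54 to -46 and at -31 to -23. The KEAP1 window at the other start held 0. Over all genes with a window the share was 16.1%, and over all 35116 windows it was 13.3%. These are letter matches in short windows and no measure of binding.

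**Figure D1:**
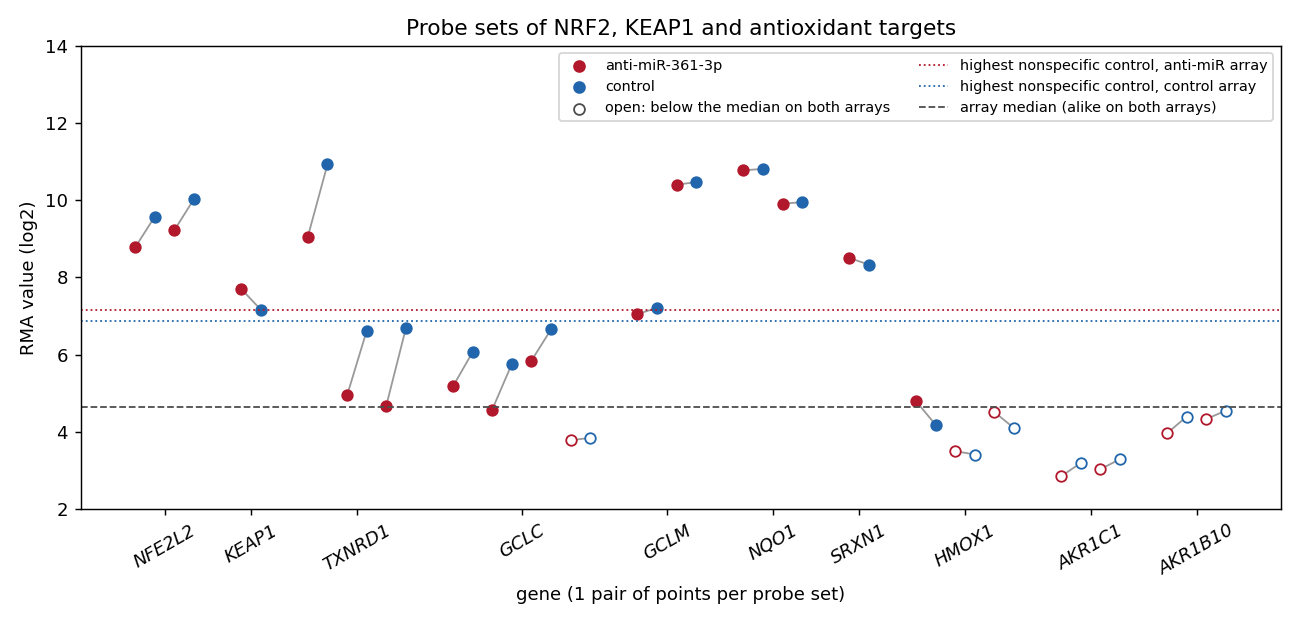
RMA values (log2) of the 22 member probe sets, with the anti-miR-361-3p array in red left of the control array in blue and a line joining the values of a probe set. Both NFE2L2 and all 3 TXNRD1 probe sets sit lower on the anti-miR array, the NQO1 pairs are level, and open points (AKR1C1, AKR1B10, 2 of HMOX1 and 1 of GCLC) lie below the array median on both arrays.

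The values are RMA log2 levels per probe set, and differences are the anti-miR-361-3p array minus the control array. Probe sets at or above the median of their array (4.64 after the inhibitor, 4.63 in the control) on 1 or both arrays were retained, and their mean gave the value of the gene. Of the 22 member probe sets 15 were retained, which left 8 of the 10 members measured; AKR1C1 and AKR1B10 were too dim. With 1 array per group, a gene was called higher or lower from 1.5-fold, or 0.58 on the log2 scale. After the inhibitor, 8.23% of all 11272 measured genes were called higher and 14.2% lower. Of the 8 measured members 3 were at least 1.5-fold lower (TXNRD1, GCLC and NFE2L2), 1 was at least 1.5-fold higher (HMOX1) and 4 lay within 1.5-fold (KEAP1, GCLM, NQO1 and SRXN1). HMOX1 reached the array median on the anti-miR array alone, where it was higher, so its passing the filter is not separate from its difference. At 2-fold, 1 of the 8 members was lower (TXNRD1), where 6.98% of all measured genes were. The median difference was -0.08 over the 8 measured members and 0.13 over all measured genes. Relative to that median gene, TXNRD1 differed by -1.98, GCLC by -1.09 and NFE2L2 by -0.93, while HMOX1 differed by 0.49, no longer past 1.5-fold, and KEAP1 by 0.41.

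The same count without the filter covers all 10 members. Then 3 of 10 members were at least 1.5-fold lower and 0 of 10 higher, against 7.37% and 4.4% of 18239 genes. The median difference was -0.21 over the 10 members and 0.10 over all genes.

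**Figure D2:**
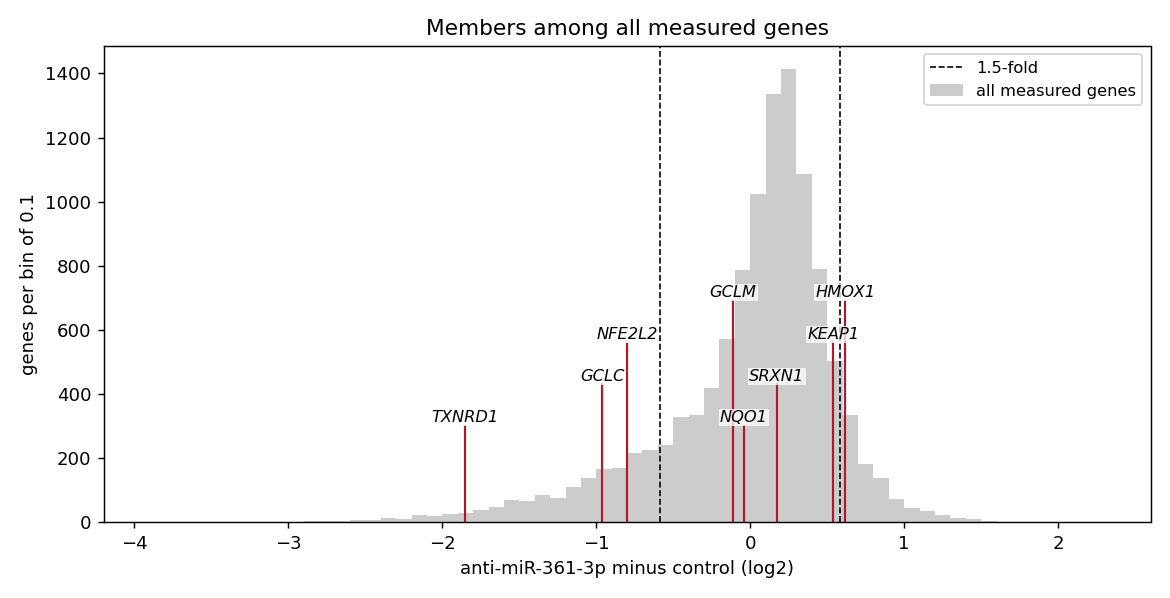
Distribution of the gene differences, anti-miR-361-3p minus control (log2), over 11272 measured genes in bins of 0.1, with the 8 measured members as red lines of arbitrary height and dashed lines at 1.5-fold. TXNRD1 (-1.85), GCLC (-0.96) and NFE2L2 (-0.80) lie in the long lower tail, GCLM, NQO1 and SRXN1 in the bulk, and KEAP1 and HMOX1 at its upper side.

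The regulator was called lower, while its repressor was higher but within 1.5-fold. NFE2L2 (Entrez 4780), which encodes NRF2 itself, had levels of 8.78 and 9.23 at its 2 probe sets after the inhibitor, against 9.57 and 10.03 in the control. Both probe sets were lower after the inhibitor, and by nearly the same amount. The gene difference was -0.80 ± 0.01 (SD over 2 probe sets), or 1.74-fold lower, and 9.92% of all measured genes were lower still. Both probe sets lay above the nonspecific control probe sets of their array, whose highest of 23 was 7.16 after the inhibitor and 6.87 in the control. The second highest read 5.14 after the inhibitor and 4.81 in the control. Levels given below as within the range of these controls can thus lie above all but 1 of them. KEAP1 (Entrez 9817), the adaptor that marks NRF2 for destruction, had a level of 7.70 after the inhibitor and 7.16 in the control at its single probe set. It was higher by 0.54, or 1.45-fold, just short of the threshold, and above the nonspecific controls on both arrays. With the median of genes of like length subtracted, as described below, KEAP1 differed by 0.29.

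TXNRD1 (Entrez 7296), the cytosolic selenoenzyme that uses NADPH to keep thioredoxin reduced, was the member with the largest difference. Its 3 probe sets had levels of 9.05, 4.94 and 4.68 after the inhibitor, against 10.93, 6.61 and 6.68 in the control. Every probe set was lower after the inhibitor, with differences between -2.01 and -1.67. The gene difference was -1.85 ± 0.17 (SD over 3 probe sets), or 3.61-fold lower, which ranked 138 from the lowest of 11272 measured genes. The brightest probe set, at 9.05 after the inhibitor and 10.93 in the control, lay above the nonspecific controls on both and differed by -1.87. The other 2 lay within the range of those controls on both arrays, so their differences are not exact sizes. Among the members, TXNRD1 and KEAP1 had a window with 2 core matches, each at 1 of its annotated starts. The window at the other start held 1 match for TXNRD1 and 0 for KEAP1. Whether the number of matches relates to the differences was not tested.

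SRXN1 (Entrez 140809), sulfiredoxin, repairs overoxidised peroxiredoxins and thus works downstream in the same thiol system. Its single probe set read 8.50 after the inhibitor and 8.33 in the control, a difference of 0.17, close to the median gene.

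The subunits of glutamate-cysteine ligase, which carries out the rate-limiting step of glutathione synthesis, parted. GCLC (Entrez 2729), the catalytic subunit, had retained levels of 5.17, 4.57 and 5.84 after the inhibitor, against 6.06, 5.76 and 6.65 in the control. All 3 were lower after the inhibitor, and the gene difference was -0.96 ± 0.20 (SD over 3 probe sets), or 1.95-fold lower. The probe set with the largest difference (-1.18) reached the array median on the control array alone, where it was higher, so its passing the filter is not separate from its difference; the other 2 differed by -0.89 and -0.81. The remaining GCLC probe set, below the array median on both arrays, read 3.78 after the inhibitor and 3.84 in the control. With it in the mean, GCLC differed by -0.74. All of its probe sets lay within the range of the nonspecific controls on both arrays, so the fold of GCLC is not an exact size. GCLM (Entrez 2730), the modifier subunit that raises the affinity of the enzyme for glutamate, read 7.05 and 10.40 after the inhibitor, against 7.21 and 10.47 in the control. It differed by -0.11 ± 0.07 (SD over 2 probe sets), and the brighter probe set, above the nonspecific controls on both arrays, by -0.06. Of the printed promoters of these subunits, that of GCLM held a core match and that of GCLC did not. The windows are short and sequence further upstream was not searched, so a match for GCLC outside its window is not excluded. Whether the matches relate to the differences of the subunits was not tested.

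NQO1 (Entrez 1728), the quinone reductase often read as a marker of NRF2 activity, was level. Its probe sets read 10.78 and 9.91 after the inhibitor and 10.81 and 9.95 in the control, all above the nonspecific controls. The difference was -0.04 ± 0.01 (SD over 2 probe sets). HMOX1 (Entrez 3162), heme oxygenase 1, which breaks heme down to biliverdin, iron and carbon monoxide, was dim. Its 3 probe sets read 4.79, 3.49 and 4.51 after the inhibitor, against 4.18, 3.41 and 4.09 in the control. The 1 retained probe set differed by 0.62, or 1.53-fold, and the mean over all 3 by 0.37, short of the threshold. All lay within the range of the nonspecific controls, so HMOX1 is not shown to be above background on either array.

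The aldo-keto reductases, which reduce steroids and reactive carbonyls, were dim. AKR1C1 (Entrez 1645) read 2.84 and 3.03 after the inhibitor, against 3.19 and 3.29 in the control. AKR1B10 (Entrez 57016) read 3.96 and 4.33 after the inhibitor, against 4.39 and 4.55 in the control. All 4 probe sets lay below the array medians and within the range of the nonspecific controls, so neither gene is shown to be above background. Near-identical relatives share probes with them. A probe set listed for both AKR1C1 and AKR1C2 read 2.74 after the inhibitor and 4.08 in the control, and the 2 probe sets shared by AKR1B10 with AKR1B15, 1 of them also with a pseudogene, read 2.92 and 2.93 after the inhibitor, against 2.93 and 3.04 in the control. AKR1C2 had no retained probe set, and AKR1C3, a prostaglandin and steroid reductase, differed by 0.03 (1 retained probe set). No probe set was annotated to AKR1B1 or AKR1B15 alone.

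Gene length moved with these differences. Measured genes were split into 10 classes by genomic span. The median difference was near 0.25 in the 4 classes of shortest genes (0.25 to 0.27) and was lower in each longer class after these, down to -0.64 among the longest genes, where 53.1% of genes were at least 1.5-fold lower. The 3 members that were lower are the 3 longest of the measured members: TXNRD1 spans 134.5 kb, GCLC 47.8 kb and NFE2L2 34.4 kb, while the other 5 span 6.59 to 24.2 kb. The median gene of the class that holds TXNRD1 differed by -0.32, with quartiles of -0.76 and 0.04. In the class of GCLC the median was 0.05 and the quartiles -0.24 and 0.26, and in the class of NFE2L2 the median was 0.15 and the quartiles -0.10 and 0.35. All 3 members thus lay below the lower quartile of their own length class. After the class median was subtracted, TXNRD1 differed by -1.54, GCLC by -1.01 and NFE2L2 by -0.96, still past 1.5-fold, while KEAP1 differed by 0.29, HMOX1 by 0.35, NQO1 by -0.29, GCLM by -0.30 and SRXN1 by -0.09. The part that gene length plays in the differences was not tested further.

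**Figure D3:**
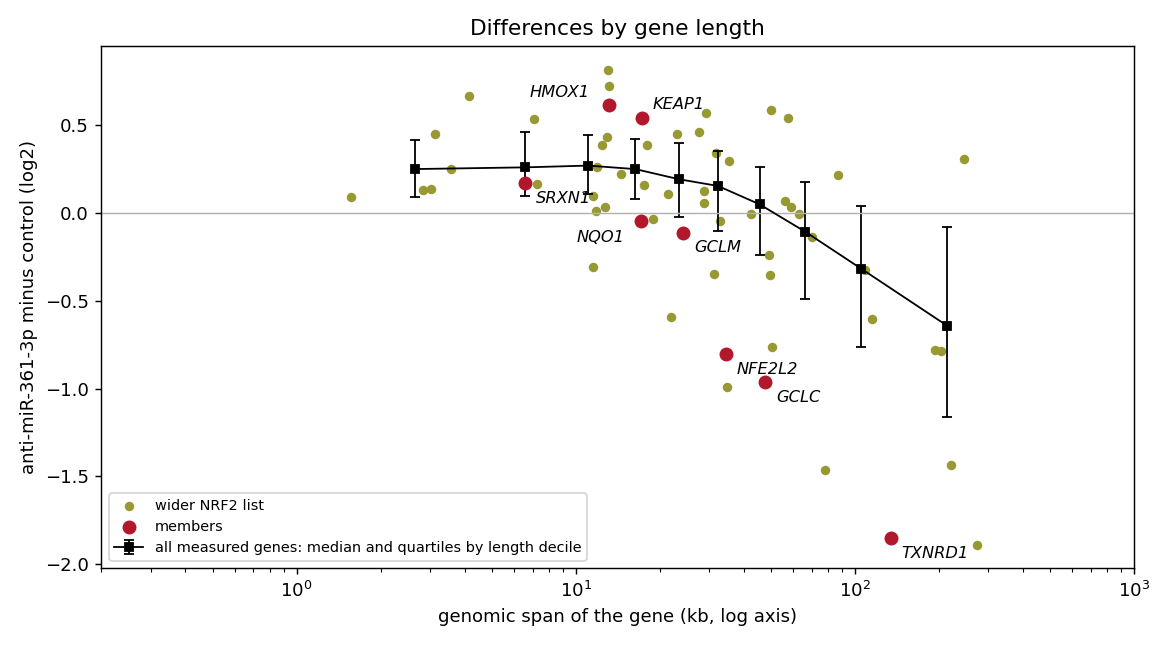
Difference, anti-miR-361-3p minus control (log2), against the genomic span of the gene in kb on a log axis, for the 8 measured members (red) and 52 measured genes of the wider NRF2 list (olive). Black squares give the median and bars the quartiles of all measured genes in each length class, placed at its median length. TXNRD1, GCLC and NFE2L2 lie below the bars of their classes.

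The wider pathway was described by 65 further genes grouped by role, of which 57 had a probe set of their own and 52 were measured. Of these 52, 9 were at least 1.5-fold lower and 4 at least 1.5-fold higher (17.3% and 7.69%), against the 14.2% and 8.23% of all measured genes given above. The list mixes genes that act on or beside NRF2 with genes that NRF2 drives, so this share is not one of NRF2 targets. Of the 9 lower genes, 5 belong to NRF2 degradation and KEAP1 partners and 1 to the partners and relatives of NRF2. Among the groups of targets, glutathione held 2 and NADPH supply 1. The median difference of the list was 0.10, against 0.13 over all measured genes. The 9 lower genes had a median span of 115.2 kb and the 39 within 1.5-fold a median of 23.0 kb. With the median of its length class subtracted from each gene, 6 of the 9 remained at least 1.5-fold lower (CAND1, GSK3B, ME1, NFE2L3, RBX1 and SLC7A11), and none of the 4 higher genes remained.

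Among the genes of NRF2 degradation and KEAP1 partners, 5 of 10 were lower and 0 higher (50% and 0%, against 14.2% and 8.23% of all measured genes). Of these 5, BTRC (-0.14) and CUL3 (-0.29) were within 1.5-fold once the median of their length class was subtracted, which left 3. GSK3B, a kinase that marks NRF2 for a KEAP1-independent route of degradation, had a level of 6.15 after the inhibitor and 8.04 in the control. It was 3.70-fold lower (-1.89 ± 0.26, SD over 2 probe sets). BTRC, the F-box protein that reads this mark, had differences between -1.52 and -0.29 at its 4 probe sets, which made it 1.72-fold lower. Its mean level was 4.45 after the inhibitor, below the median of that array (4.64), and 5.23 in the control. At least 1 of its probe sets thus passed the filter on the control array alone, where it was higher, so its passing is not separate from its difference. All 4 were retained, so the value of BTRC was the same with no filter. GSK3B and BTRC are long genes, at 273.1 and 203.3 kb, and the median of their length class was -0.64. CUL3, the cullin of the KEAP1 ligase, differed by -0.60 ± 0.20 (SD over 3 probe sets), and RBX1, its RING subunit, by -0.59 ± 0.03 (SD over 2 probe sets), both just past the threshold. With dim probe sets kept, CUL3 differed by -0.44, short of it. CAND1, which exchanges the substrate adaptors of cullins, differed by -0.76 ± 0.19 (SD over 3 probe sets). SQSTM1, the autophagy receptor that sequesters KEAP1, differed by 0.34 ± 0.04 (SD over 5 probe sets), within 1.5-fold.

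Of the partners and relatives of NRF2, 5 were measured. NFE2L1, a related factor that drives proteasome genes, read 6.78 after the inhibitor and 6.05 in the control and was 1.65-fold higher, with all 6 probe sets between 0.55 and 0.91. NFE2L3, another relative, was 1.99-fold lower (1 probe set, 5.46 after the inhibitor and 6.45 in the control). Both relatives had gene levels within the range of the nonspecific controls. BACH1, a repressor at the same response elements, differed by -0.0046 (7.23 on both arrays, 1 probe set), and MAFG, a small MAF partner, by 0.43 ± 0.13 (SD over 4 probe sets).

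In the glutathione group 2 of 12 genes were lower and 0 higher, and the 16.7% lower was near the 14.2% of all measured genes. SLC7A11, the cystine transporter that supplies cysteine to glutathione synthesis, read 6.31 after the inhibitor and 7.77 in the control. It was 2.76-fold lower, though its 3 probe sets ranged from -1.95 to -0.54. Its partner chain SLC3A2 differed by -0.05 ± 0.10 (SD over 7 probe sets). ABCC1, an exporter of glutathione conjugates, was 1.72-fold lower with probe sets at -0.95 and -0.60. It was short of the threshold with its dim probe set kept (-0.50) and after the median of its length class was subtracted (-0.14). GSS, glutathione synthetase, which works after the ligase, differed by 0.46 ± 0.02 and GSR, glutathione reductase, by -0.35 ± 0.02 (SD over 2 probe sets each), both within 1.5-fold.

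The NADPH group held 1 lower gene of 5 and no higher one (20% lower, against 14.2% of all measured genes). ME1, the cytosolic malic enzyme, read 6.72 after the inhibitor and 8.15 in the control and was 2.70-fold lower, with its 2 probe sets at -1.44 and -1.43. It spans 220.7 kb. After the inhibitor the gene levels of ME1, GSK3B, BTRC, SLC7A11 and ABCC1 lay within the range of the nonspecific controls, which makes these folds inexact. The pentose phosphate enzymes stayed within 1.5-fold, with TALDO1 at 0.16 (1 probe set) and TKT at -0.35 ± 0.01 (SD over 3 probe sets).

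The remaining groups held no lower gene, and each held at most 1 higher gene. Of all measured genes 14.2% were lower and 8.23% higher, so in groups of 4 to 6 genes such counts say little. TXNIP, an inhibitor of thioredoxin, was the 1 of 4 thioredoxin and peroxiredoxin genes that was higher (0.67 ± 0.24, SD over 4 probe sets; 0.57 and short of the threshold with dim probe sets kept). Its levels of 5.81 after the inhibitor and 5.14 in the control lay within the range of the nonspecific controls, so this is not an exact size, while PRDX1, a peroxiredoxin, differed by 0.01 (1 probe set). PTGR1, a prostaglandin and alkenal reductase, was 1.5-fold higher at its single probe set, at the threshold, and was the 1 of 6 xenobiotic and carbonyl genes past it. OSGIN1, an oxidative stress response gene, was 1.76-fold higher (5.86 after the inhibitor and 5.04 in the control), within the range of the nonspecific controls, and was the 1 of 5 other targets past the threshold. TRIM16, a ubiquitin ligase of the same group, differed by 0.07 (1 probe set). None of 5 iron and heme genes passed 1.5-fold, and FTL, ferritin light chain, differed by 0.09 ± 0.02 (SD over 8 probe sets).

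Antioxidant enzymes that are not classical NRF2 targets were set beside these. Of 14 measured, 1 was lower and 0 higher (7.14% lower, against 14.2% of all measured genes), with a median difference of 0.08. GPX1, a cytosolic glutathione peroxidase, read 8.97 after the inhibitor and 9.92 in the control and was 1.93-fold lower (-0.95 ± 0.01, SD over 2 probe sets). It is a short gene of 1.18 kb, in a length class whose median was 0.25. SOD1, superoxide dismutase 1, differed by -0.10 ± 0.16 (SD over 3 probe sets).

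**Figure D4:**
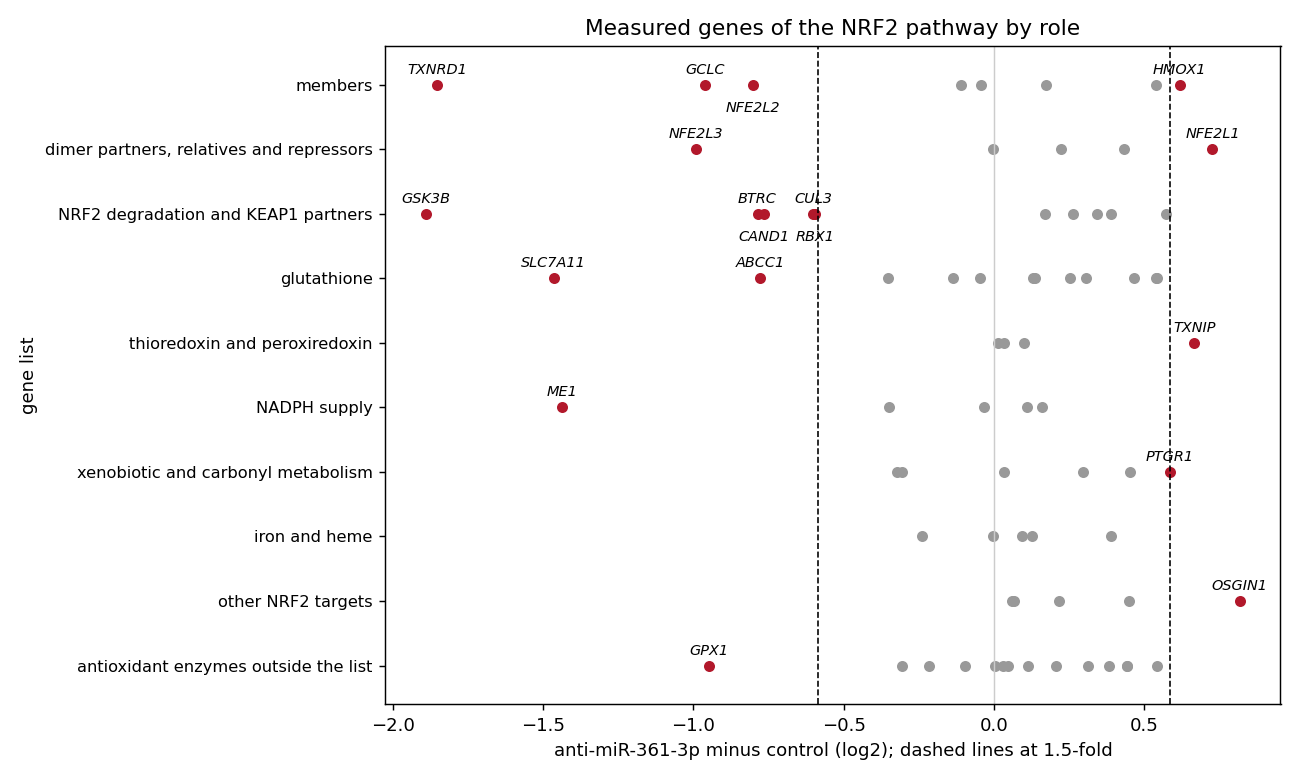
Difference, anti-miR-361-3p minus control (log2), of each measured gene, 1 point per gene, for the members, the 8 role groups of the wider NRF2 list and other antioxidant enzymes. Red points lie past 1.5-fold (dashed lines) and are named; the group of NRF2 degradation and KEAP1 partners has 5 such points, all lower.

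The poly-A control transcripts, which are spiked into the RNA, read 0.32 ± 0.19 higher after the inhibitor (SD over 12 probe sets), near the upper quartile of all gene differences (0.33) and above the differences of SRXN1 and FTL. The part of such an offset in the higher values was not tested. Of 10 squamous epithelial markers 6 were measured, with levels of 7.84 to 11.1 after the inhibitor and 7.77 to 11.3 in the control. KRT14 had no retained probe set. KRT6A, KRT17 and TP63 had no probe set of their own, so their levels are not known. None of 6 fibroblast markers was measured, and their brightest probe set read 4.13 after the inhibitor and 3.90 in the control. Of the leukocyte, endothelial and skeletal muscle markers, 6 of 12 were measured, with the brightest probe set of the 3 lists at 5.60 after the inhibitor and 5.67 in the control.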

How the data were processed

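The authors deposited 1 log2 value per probe set and array, made with RMA (background correction, normalization between arrays, summary over the probes of a set), per the submitters' processing notes. Its version and software, and which arrays were normalized together, are not given in these sources. Of 49386 probe sets, 93 array controls were set aside. Of 45253 other probe sets with 1 symbol, 45172 were found by Entrez ID in RefSeq's GRCh38.p14 gene table, which gave the symbol and genomic span. The files name no build, so no gene coordinates are given, only those of printed RefSeq sequences.

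Differences, the retention rule, gene means and the 1.5-fold threshold are defined where first used. The SD over probe sets of a gene is a technical error within 1 pair of arrays; such probe sets can share probes. Pooled over 6263 genes it was 0.29. There is no detection call, and precision is limited by the number of arrays. The gene summary was tested on simulated data with less noise between probe sets than these data have and no trend with gene length. That test checks the calculation and not the precision of the values here. Members and lists were chosen with earlier results of these data known. From the wider list every gene past 1.5-fold and the brightest gene of each group were named, as were AKR relatives and, by the same rule, GPX1 and SOD1 of the comparison list. MAFG, SQSTM1, GSS, GSR and TKT were added after their values were seen. The alternatives tried were a filter at the 75th percentile, no filter, the brightest or the median probe set, centring on the median gene or on a lowess trend (fraction 0.3), plain _at probe sets and a 2-fold threshold. Centring on 10 length classes was added after seeing the data. Python 3.11.15, numpy 2.4.6, pandas 2.3.3 and statsmodels 0.14.6 were used.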

Additional observations from a re-analysis of the deposited data

How the results depend on the processing

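Leaving out an array was not possible with 1 per group. No paired analysis was possible because there is 1 sample in each group. The 3 lower members (of 8) were also 3 in every setting but 2: a 2-fold threshold gave 1 (TXNRD1), and plain _at probe sets, which measured GCLM alone of the members, gave 0. The 1 higher member, HMOX1, was lost in 7 settings, which gave 0: no filter, the filter at the 75th percentile, centring on the median gene, the lowess trend, plain _at probe sets, the 2-fold threshold and the length classes. Of the wider list, 4 genes were higher in the main setting. The count was 2 with the 75th percentile filter, with median centring, with the lowess trend and with length classes. It was 0 with plain _at probe sets or at 2-fold. The 2 genes with length classes were not among the 4 of the main setting. The 9 lower genes became 3 with plain _at probe sets, where 12 genes were measured, and 3 at 2-fold; the other settings gave 6 to 9. Of 56 gene differences of members under the alternatives, 55 moved by less than the pooled SD of 0.29. The other was TXNRD1 with length classes (-1.54), which moved by more. Many of the 56 could not move past that SD. Median centring took the same 0.13 from every gene. Members with 1 retained probe set kept their value with the brightest or the median probe set, and members with 2 kept it with the median. The tally is thus a weak check. The median over members moved by less than the pooled SD in each setting.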

Other observations

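TXNRD1 and GPX1, both lower after the inhibitor, encode selenoproteins, which carry selenocysteine at their active site. The whole human selenoprotein family was therefore listed, after these values were seen, as a description. Of 25 family members 18 were measured; 2 were at least 1.5-fold lower and 2 at least 1.5-fold higher (11.1% each, against 14.2% lower and 8.23% higher of all measured genes), with a median difference of 0.29 against 0.13 over all measured genes. The 14 family members within 1.5-fold had a median span of 7.06 kb. In the length class of that span the median over all measured genes was 0.26. The 0.29 of the family is over all 18 measured members and not these 14 alone. The part of gene length in it was not tested. The lower family members were TXNRD1 (-1.85) and GPX1 (-0.95). The higher ones were SELENOW, a small thioredoxin-fold protein, at 2-fold (8.28 after the inhibitor and 7.29 in the control, 1 probe set) and SELENOO, a mitochondrial protein, at 1.70-fold (6.74 after the inhibitor and 5.97 in the control, 1 probe set, within the range of the nonspecific controls on both arrays, so the fold is not an exact size). The relatives of the lower enzymes were not lower by 1.5-fold: TXNRD2, the mitochondrial thioredoxin reductase, differed by 0.05 ± 0.17 (SD over 4 probe sets), TXNRD3 by 0.33 (1 probe set), and GPX4, which reduces lipid peroxides, by 0.31 (2 probe sets). SEPHS2, which makes the selenium donor for selenocysteine, differed by 0.24 (1 probe set). After the median of its length class was subtracted from each gene, SELENOO differed by 0.52, within 1.5-fold. SELENOW (0.74), TXNRD1 (-1.54) and GPX1 (-1.20) stayed past 1.5-fold.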
